A study of Homo sapiens with 4 samples.

Results

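The transcripts of RAB GTPases were examined in GIST-T1, an established human line of gastrointestinal stromal tumor cells, after transfection with a miR-335 mimic. The members were the array's gene names that consist of RAB, a number and at most 2 letters, such as RAB40B, which gave 62 of the 36337 gene names on the array and 80 of its 50599 probes. They comprised 61 RAB GTPase genes and RAB3IP, whose name fits the pattern although it encodes Rabin8, an exchange factor that loads RAB8 with GTP. RAB3IP was therefore described apart from the GTPases, but the counts of RAB genes below include it unless stated. Of the 62 genes, 48 could be tested, and all 48 were well above background on all 4 arrays.

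There were 2 mimic arrays and 2 control arrays, and no other samples. The mimic group received a synthetic RNA that acts as mature miR-335, and the control group received Negative Control #1, a mimic RNA of the same supplier. In both groups 100 pmol of RNA was delivered by electroporation into otherwise untreated cells, and RNA was extracted after 48 h, of which 100 ng was labeled with a single dye (Cy3). Only 1 cell line was used, and the labels do not say whether the replicates were separate cultures, so the p-values measure the spread between these arrays, which may be technical. The description of each mimic sample carries a further line naming a miR-34a mimic, whereas its title, its transfection label and the series' design text name miR-335; which of these names applies was not tested.

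The share of probes well above background ranged from 40.3% to 41.9% over the arrays. All 6 markers of gastrointestinal stromal tumor and of interstitial cells of Cajal that were examined, among them the receptor genes KIT and PDGFRA and the channel gene ANO1, were above background on all 4 arrays, as were 2 of 4 smooth muscle markers, 3 of 5 epithelial markers and 1 of 3 blood cell markers. The arrays lay on 1 slide, with the controls at positions 1 and 2 and the mimics at positions 3 and 4, so that position and group cannot be told apart.

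RAB proteins are small GTPases that mark the membranes of the cell and recruit the proteins that move, tether and fuse vesicles. An exchange factor loads a RAB with GTP and thereby switches it on, and a GTPase-activating protein, usually of the TBC family, switches it off again. Switched-on RABs bind effectors such as motor adaptors and tethers. Prenyl groups anchor RABs in membranes, and carrier proteins take the switched-off form back into the cytosol. Many RAB numbers have several paralogs (A, B, C), which are close relatives in sequence.

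A microRNA recognizes transcripts mainly through its seed, bases 2 to 8, and the seed is shown here because only 1 RAB probe contains its match. In the mature miR-335-5p of RefSeq (GRCh38.p14, chr7:130496126-130496148, plus strand) the seed is in capitals, and in the stretch of the RAB40B probe (hg19, chr17:80615516-80615575, minus strand) the capitals mark the 7 bases GCTCTTG that pair with it.
hsa-miR-335-5p: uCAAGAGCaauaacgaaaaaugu
RAB40B probe, 30 bases around the match: atgtgcatgaaGCTCTTGttttcgatgtgt
The labels do not say which arm of miR-335 the mimic carried, and the 5p arm is shown. The match was searched for on the transcript strand of the 60-base probes, and it begins at base 28 of the RAB40B probe. GCTCTTG occurred in 1 of the 80 RAB probes (1.25%) and in 221 of all 50599 probes (0.437%). The longer form GCTCTTGA was in 0 RAB probes and in 50 of all probes (0.0988%). A probe covers a short stretch of a transcript, so the absence of the letters from the other RAB probes says nothing of their transcripts outside it, and whether the stretch in RAB40B is used by the microRNA was not tested.

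To ask whether miR-335 altered the RAB transcripts, mimic and control arrays were compared in limma with Benjamini-Hochberg adjustment over all 20328 tested probes. RAB40B, which encodes a RAB that carries a SOCS box and joins a ubiquitin ligase complex, fell by 0.86 ± 0.08 (SE) on the log2 scale with the mimic, a 1.81-fold decrease. RAB3IP fell by 0.67 ± 0.04 (SE), a 1.59-fold decrease. These were the only members to pass an adjusted p of 0.05. Thus 2 of 48 genes were lower (4.17%) against 1.34% of all 15454 tested genes, and 0 were higher against 1.42%. Without RAB3IP, 1 of the 47 tested GTPase genes was lower (2.13%). By unadjusted p below 0.05, 15 RAB genes were lower and 1 was higher in limma, which is 33.3% of the 48 against 25.9% of all genes. Without RAB3IP these were 14 lower and 1 higher (31.9%).

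On the log2 scale used for the following levels, 0 is the signal at the 75th percentile of the array. RAB40B was at 0.87 and 0.86 on the mimic arrays and at 1.63 and 1.82 on the control arrays. Both mimic arrays were thus below both controls, and they lay closer to each other than the controls did. The limma adjusted p was 0.0407. RAB3IP (hg19, chr12:70209304-70209363, plus strand) was at -0.50 and -0.44 with the mimic and at 0.19 and 0.21 in the control. Its groups were separated by far more than the distance between arrays of a group, and the limma adjusted p was 0.0348. The other RAB3IP probe was not above background on any array, so the fall rests on 1 probe, and it was -0.42 with the normexp background correction, below the 1.5-fold limit. Leaving out any single array gave changes of -0.95 to -0.76 for RAB40B and of -0.69 to -0.64 for RAB3IP. With 1 array left in a group hardly any probe of the array passed the threshold, so these fits cannot show whether the calls hold.

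**Figure D1:**
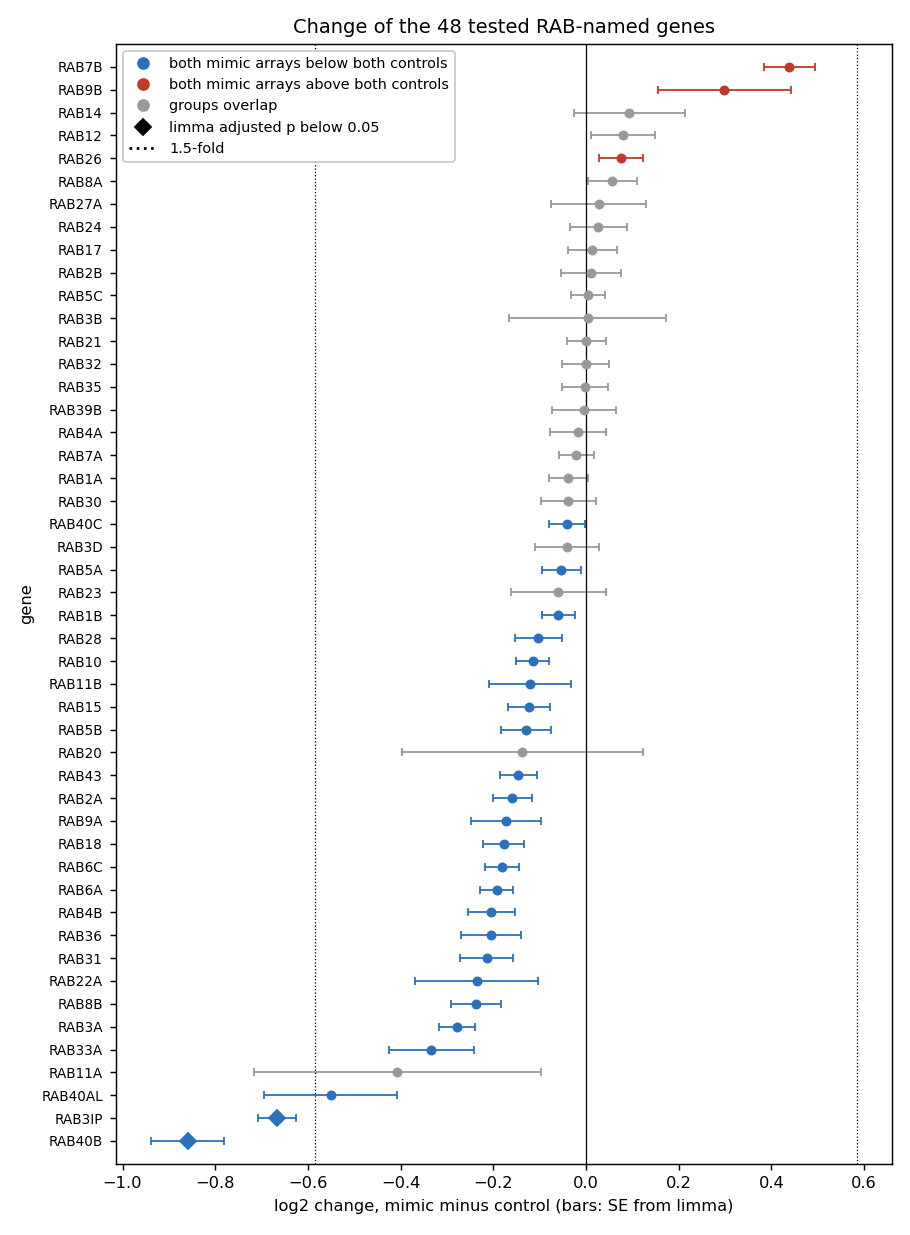
Log2 change, mimic minus control, of the brightest tested probe of each of the 48 genes, with the SE from limma as bars. RAB40B (-0.86) and RAB3IP (-0.67) are the diamonds that pass the adjusted threshold, most other points lie within 0.4 of 0, and RAB7B (0.44) is the highest.

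Most of the other RAB values were close to 0. The 48 changes ranged from -0.86 to 0.44 with a median of -0.06, against a median of -0.02 over all tested genes, and 35 of 48 (72.9%) were below 0 against 55.3% of all genes. Both mimic arrays were below both controls in 24 RAB genes (50%, against 34.5% of all genes) and above both in 3 (6.25%, against 26.8%). The groups overlapped in the other 21. Without RAB3IP, 34 of 47 changes were below 0 (72.3%), and both mimic arrays were below both controls in 23 (48.9%). Over 1.5-fold, 2 RAB genes were lower (1.5% of all genes) and 0 were higher (2.17% of all genes); between the 2 arrays of a single group, 1 RAB gene exceeded 1.5-fold in the mimic group (1.85% of all genes) and 1 in the control group (1.79% of all genes). Scaling the arrays to the external spike-in RNA in place of the 75th percentile moved the median change of all genes to -0.21 and that of the RAB genes to -0.25. The number of RAB genes passing the limma threshold became 28 lower and 1 higher, where 9642 of all 20328 tested probes passed. A scaling shifts every gene alike, which leaves the RAB median 0.04 below that of all genes; this distance was 0.02 with normexp and 0.10 without the filter on dim probes.

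The endoplasmic reticulum and Golgi RABs carry vesicles through the early secretory pathway. Of 17 genes 12 were tested, and the median change was -0.15. The change was below 0 in 11 of the 12 (91.7%; 55.3% of all genes), and both mimic arrays were below both controls in 8 (66.7%; 34.5% of all genes). None passed the adjusted threshold, and 7 had an unadjusted limma p below 0.05 (58.3%; 25.9% of all genes). RAB6A, which acts at the trans-Golgi, was at 2.70 on both mimic arrays and at 2.89 on both control arrays. That is a change of -0.19 ± 0.04 (SE) with a limma adjusted p of 0.0931, small in size but wider than the gap between arrays of a group. RAB6C, a retrogene of RAB6A, was at 4.68 and 4.69 with the mimic and at 4.86 and 4.88 in the control, a change of -0.18 ± 0.04 (SE; limma adjusted p 0.104). Because the transcripts of RAB6A and RAB6C are so alike, each probe may also have read the other's RNA, which was not analysed here.

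RAB2A, needed between the endoplasmic reticulum and the Golgi, changed by -0.16 ± 0.04 (SE), RAB18, which is also found on lipid droplets, by -0.18 ± 0.04 and RAB43 by -0.15 ± 0.04, with limma adjusted p of 0.139, 0.132 and 0.144. A further RAB18 probe gave -0.03. RAB33A, a Golgi RAB, showed the lowest value of the group at -0.33 ± 0.09 (SE; limma adjusted p 0.148). It was at -1.56 and -1.41 with the mimic and at -1.07 and -1.24 in the control, so the gap between the groups was close to that between arrays of a group, and with normexp the change was -0.10, smaller than that of RAB6A (-0.20). RAB36 changed by -0.20 ± 0.06 (SE). RAB1A and RAB1B, which direct transport out of the endoplasmic reticulum, were nearly level: RAB1A was at 5.84 and 5.90 with the mimic and 5.89 and 5.92 in the control, and RAB1B at 4.15 and 4.16 against 4.22 and 4.21. RAB30, RAB39B and RAB2B changed by between -0.04 and 0.01.

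In the early endosome group, where RAB5 proteins drive the fusion of incoming vesicles, all 11 genes were tested. 7 of the 11 changes were below 0, with a median of -0.05, and none passed the threshold. RAB5A, RAB5B and RAB5C changed by -0.05 ± 0.04, -0.13 ± 0.05 and 0.00 ± 0.04 (SE). RAB31, which serves transport between the trans-Golgi and endosomes, and RAB4B, a fast-recycling RAB, were the members of this group with an unadjusted p below 0.05: the changes were -0.21 ± 0.06 and -0.20 ± 0.05 (SE), with limma adjusted p of 0.145 and 0.131. RAB22A was at 1.69 and 1.74 with the mimic and at 2.12 and 1.78 in the control. Its change was -0.24 ± 0.13 (SE), and the control arrays were themselves 0.34 apart. RAB14, which acts between the Golgi and early endosomes, changed by 0.09 ± 0.12 (SE), and the sign turned to -0.06 without control 2 and to -0.09 with spike-in scaling. RAB20 was the noisiest of the group: its mimic arrays, at -1.78 and -2.44, lay on either side of the controls at -2.07 and -1.86. RAB4A, RAB21 and RAB24 changed by between -0.02 and 0.03, with overlapping groups. A further, dimmer RAB21 probe gave -0.25 ± 0.05 (SE; limma adjusted p 0.0937), with both mimic arrays below both controls.

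The recycling and polarised delivery RABs return receptors to the surface and deliver cargo to cilia and cell borders. Of 11 genes 9 were tested, 6 changes were below 0, the median was -0.12, and none passed the threshold. RAB11A, the RAB of recycling endosomes, was at 0.49 and 0.65 with the mimic and at 0.57 and 1.38 in the control. The groups overlapped, and the change of -0.41 ± 0.31 (SE; limma adjusted p 0.467) depended on control 2, being -0.0025 without it. RAB8B was at -0.17 and -0.19 with the mimic and at 0.00 and 0.11 in the control. Its change of -0.24 ± 0.05 (SE) had a limma adjusted p of 0.119. RAB8A, the RAB that RAB3IP activates in ciliary transport, was at 4.54 and 4.61 against 4.48 and 4.56, with overlapping groups and a change of 0.06 ± 0.05 (SE). RAB10, which serves delivery to the plasma membrane, changed by -0.12 ± 0.04 (SE), RAB15 by -0.12 ± 0.05 and RAB11B by -0.12 ± 0.09. RAB12, RAB17 and RAB35 changed by between 0.00 and 0.08, and the value of RAB12 was -0.11 with spike-in scaling.

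The late endosome and lysosome RABs held the highest changes of the family. 5 of 6 genes were tested, and both mimic arrays were above both controls in 2 of them (40%, against 26.8% of all genes). RAB7B, which acts between late endosomes and the trans-Golgi, was at -2.26 and -2.18 with the mimic and at -2.62 and -2.70 in the control. Its change of 0.44 ± 0.05 (SE) was several times the distance between arrays of a group but had a limma adjusted p of 0.0595, and it passed at 0.0485 when arrays were scaled to the median of detected probes. RAB7B was a dim probe, with no coordinates in the array's annotation, and its change was 0.19 with normexp. RAB9B was at -1.91 and -1.54 with the mimic and at -2.03 and -2.01 in the control, a change of 0.30 ± 0.14 (SE; limma adjusted p 0.294), and a further RAB9B probe gave 0.23. The change was 0.11 without mimic 2, 0.48 without mimic 1 and 0.11 with spike-in scaling. RAB7A, which governs fusion with lysosomes, was at 3.55 and 3.57 with the mimic and at 3.60 and 3.57 in the control, with overlapping groups. RAB9A, which returns receptors from late endosomes to the Golgi, changed by -0.17 ± 0.08 (SE; limma adjusted p 0.265), and RAB32, a RAB of lysosome-related organelles, by 0.00 ± 0.05.

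Of the 8 regulated secretion RABs 5 were tested, with a median change of 0.00. RAB3A, known from synaptic vesicles, was at 0.96 and 1.00 with the mimic and at 1.25 and 1.27 in the control. Its change of -0.28 ± 0.04 (SE) far exceeded the gap between arrays of a group and had a limma adjusted p of 0.0685. RAB3B changed by 0.00 ± 0.17 and RAB3D by -0.04 ± 0.07 (SE), with overlapping groups, and both turned in sign when single arrays were left out. RAB26 was at 0.13 and 0.05 against 0.02 and 0.00, a change of 0.07 ± 0.05 (SE) that became -0.11 with spike-in scaling. RAB27A, which docks secretory granules and exosome-bearing endosomes, changed by 0.03 ± 0.10 (SE). RAB23, a RAB linked to cilia and Hedgehog signaling, and RAB28 fell in none of these groups and changed by -0.06 ± 0.10 and -0.10 ± 0.05 (SE).

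The SOCS box RABs, which link RAB proteins to cullin ubiquitin ligases, were the group of GTPases with the lowest median change, -0.55. Over 3 genes this median is the value of RAB40AL. RAB40AL, an intronless X-linked copy of the RAB40 family (hg19, chrX:102192709-102192768, plus strand), was at -1.75 and -2.12 with the mimic and at -1.40 and -1.37 in the control. Both mimic arrays were below both controls but were themselves apart by 0.37, and the change of -0.55 ± 0.14 (SE) had a limma adjusted p of 0.139. It was -0.23 with normexp, and -0.74 and -0.36 without mimic 1 and mimic 2. RAB40C (hg19, chr16:678322-678381, plus strand) was at 0.22 and 0.23 with the mimic and at 0.25 and 0.29 in the control. Its change of -0.04 ± 0.04 (SE) had a 95% interval of -0.15 to 0.07, which holds no change of the size of RAB40B's. RAB40AL is close in sequence to RAB40A, for which the array had no probe of that name, and reading of RAB40A RNA by the RAB40AL probe was not analysed here.

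**Figure D2:**
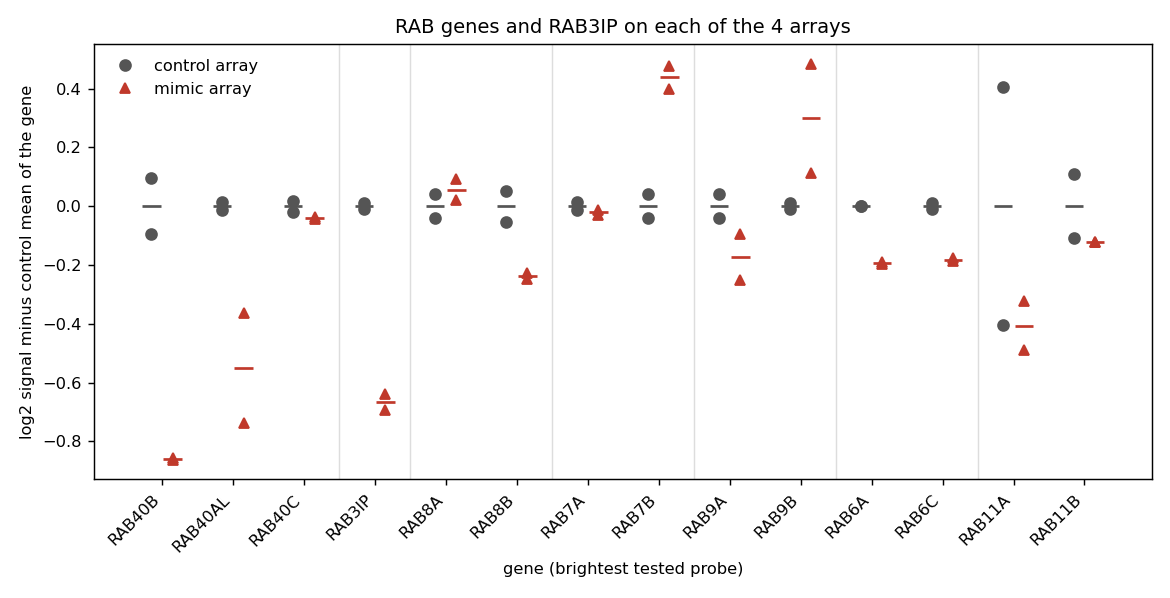
Log2 signal of each array minus the mean of the 2 control arrays, for 14 RAB-named genes; circles are control arrays, triangles mimic arrays and bars group means. The mimic arrays of RAB40B and RAB3IP sit below both of their controls, which are 0.19 apart for RAB40B and 0.02 apart for RAB3IP, RAB40C stays near 0, RAB7B lies above its controls, and RAB11A has widely spaced controls.

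The paralogs of a number were then compared within each array, to ask whether near relatives responded alike. There were 17 pairs of tested GTPase genes, from 11 numbers and 25 genes. In 13 of the 17 pairs the difference between paralogs did not overlap between the groups, against 60.2% of all pairs of tested genes, and in 1 pair it changed by over 1.5-fold, against 8.35% of all pairs. With 2 arrays a group the two-sided exact permutation test could reach no p below 0.333, the value it gave for each of the 13. The pairs are therefore given by size and error. The error combines the limma SEs of both probes as if they were independent, although they come from the same arrays. No probes of different RAB genes shared a run of more than 11 bases. Probes were compared only with probes and not with the transcripts of paralogs, so this cannot show that a probe read 1 gene alone.

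RAB40B and RAB40C were the pair that differed most. The log2 signal of RAB40B minus that of RAB40C was 0.65 and 0.63 on the mimic arrays and 1.38 and 1.53 on the control arrays. Signals of different probes do not compare as levels, but the shift between the groups is a difference in response of -0.82 ± 0.09 (SE), with a 95% interval of -1.07 to -0.56. RAB40AL against RAB40C differed by -0.51 ± 0.15 (SE), which was -0.21 with normexp and ranged from -0.70 to -0.32 without 1 mimic array. RAB40AL against RAB40B differed by 0.31 ± 0.16, with an interval of -0.17 to 0.78 that includes 0 and a range of 0.12 to 0.49 with single arrays left out.

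In 8 of the 17 pairs the paralogs had changes of opposite sign. Several of these had a member within its SE of 0 (RAB2B, RAB3B, RAB3D, RAB5C, RAB7A). Of all tested genes 55.3% had a change below 0, and the share of opposite signs over all pairs is not given. The count of 8 therefore says nothing particular about paralogs. With spike-in scaling, which lowered every RAB change, only 2 pairs of opposite sign were left, RAB7A with RAB7B and RAB9A with RAB9B. RAB9A responded 0.47 ± 0.16 (SE) lower than RAB9B, with an interval for the difference of -0.94 to -0.0040. RAB7A against RAB7B differed by -0.46 ± 0.07 (SE), with an interval of -0.65 to -0.27, and by -0.22 with normexp. RAB8A against RAB8B differed by 0.29 ± 0.08 (SE), with an interval of 0.07 to 0.51: RAB8B was the lower with the mimic. RAB3A against RAB3B differed by -0.28 ± 0.17 (SE). RAB3A against RAB3D, whose changes had the same sign, differed by -0.24 ± 0.08.

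Other paralogs were closer. RAB6A and RAB6C differed in response by -0.01 ± 0.05 (SE), with a 95% interval of -0.16 to 0.14. Each of their probes may have read the other gene's RNA, so this closeness cannot show that both genes responded alike. RAB1A and RAB1B differed by 0.02 ± 0.06, with an interval of -0.14 to 0.18, which leaves room for only small differences. RAB3B against RAB3D differed by 0.04 ± 0.18, but its interval, -0.49 to 0.57, is too wide to show that these 2 genes responded alike. RAB11A against RAB11B had the widest interval, -1.22 to 0.64. The 3 pairs of RAB5 genes differed by between -0.13 and 0.08, and RAB4A against RAB4B by 0.19 ± 0.08.

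**Figure D3:**
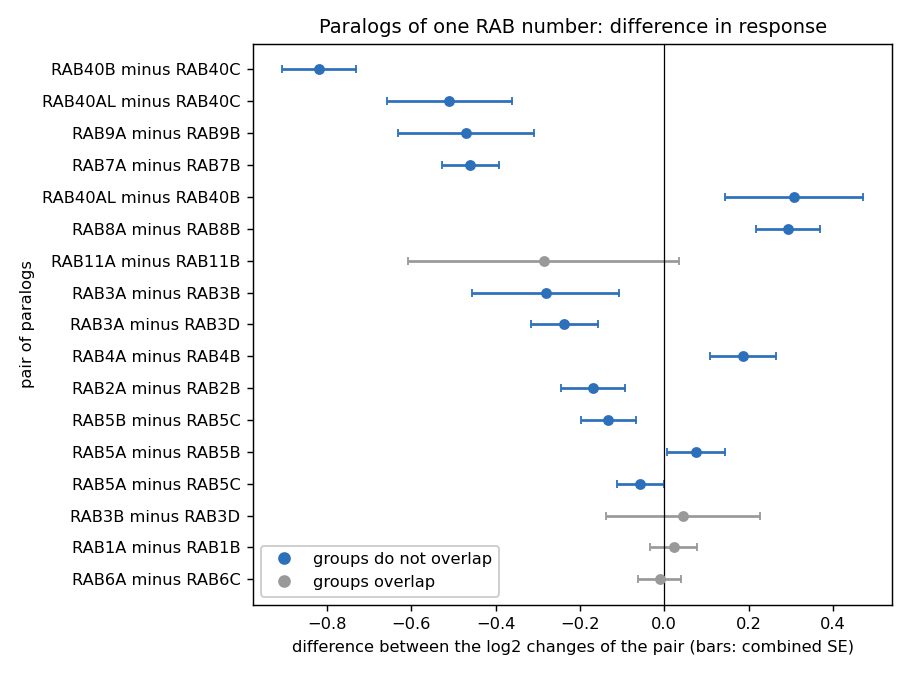
Difference between the log2 changes of the 2 paralogs in each of 17 pairs, with the combined SE from limma as bars; blue pairs did not overlap between the groups. RAB40B minus RAB40C lies farthest from 0 at -0.82, and RAB6A minus RAB6C lies at -0.01.

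Where a RAB gene had more than 1 tested probe, the probes could be set side by side. This was so for 8 genes. RAB21 had a probe at 0.00 and another at -0.25, and the 3 RAB28 probes ranged from -0.10 to 0.05, so that the sign differed within these genes. In RAB1A, RAB1B, RAB2B, RAB9B, RAB12 and RAB18 the signs were the same, and the probes of a gene differed by at most 0.15.

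The 14 genes that were not tested were RAB13 and RAB25 of the recycling group, RAB6B, RAB33B, RAB34, RAB39 (now RAB39A) and RAB41 of the Golgi group, RAB3C, RAB27B and RAB37 of the secretion group, RAB38 of the lysosome group, and RAB19, RAB42 and RAB44. RAB34 was above background on 1 mimic array, and the others on 0 of the 4 arrays. For these genes no change can be given at this signal.

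Finally, the genes that act on RABs were examined. In the prenylation and recycling list 5 of 6 genes were tested, the median change was 0.00, and none passed the threshold in limma, nor had any an unadjusted p below 0.05. CHM, the escort protein that presents new RABs for prenylation, changed by -0.19 ± 0.09 (SE), and a further CHM probe gave 0.01.

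Of the exchange factors 41 were tested, with a median of -0.04, and 1 fell while 0 rose (2.44% called, against 2.76% of all genes). The gene that fell was RAB3IP, which counts here as well as among the RAB-named genes. The highest value of the list was that of SBF1, which was at 4.38 and 4.40 with the mimic and at 4.19 and 4.17 in the control, a change of 0.21 ± 0.04 (SE; limma adjusted p 0.0873).

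Of the GTPase-activating proteins 34 were tested, with a median of -0.02. SGSM2, a TBC protein, was at 1.34 and 1.32 with the mimic and at 0.74 and 0.60 in the control and rose by 0.66 ± 0.07 (SE; limma adjusted p 0.0442). The other SGSM2 probe gave -0.10 ± 0.04. The lowest value was that of TBC1D9 at -0.51 ± 0.06 (SE; limma adjusted p 0.0533). Of the effectors 43 were tested, with a median of -0.07. RAB11FIP5, which binds RAB11 on recycling endosomes, was at 2.30 and 2.27 with the mimic and at 2.70 and 2.66 in the control and fell by 0.40 ± 0.04 (SE; limma adjusted p 0.046). RAB11FIP1, of the same family, changed by -0.24 ± 0.04 (SE, limma adjusted p 0.0829), but a further RAB11FIP1 probe gave 0.03. RAB11FIP2, RAB11FIP3 and RAB11FIP4 changed by 0.03, -0.02 and -0.19, with overlapping groups. MICALL2, an effector of RAB8 and RAB13, had the highest value of the effectors at 0.42 ± 0.05 (SE, limma adjusted p 0.058). In all, 3 of 123 tested regulator and effector genes, RAB3IP included, passed the threshold, which is 2.44% against 2.76% of all genes.

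**Figure D4:**
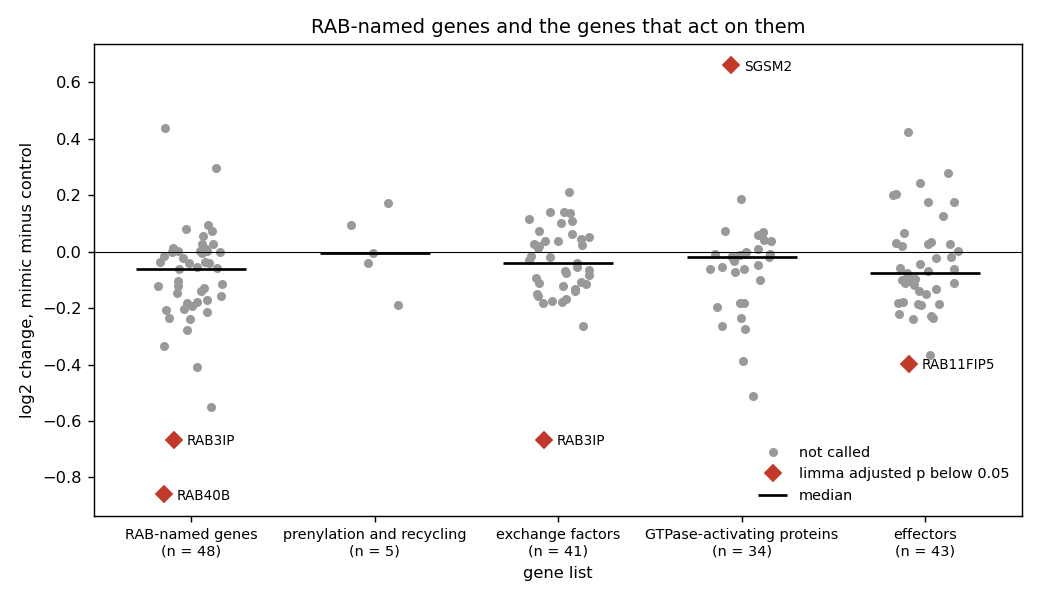
Log2 change, mimic minus control, of each tested gene of the RAB-named genes and of the 4 lists of genes that act on them; bars are medians and diamonds genes with a limma adjusted p below 0.05. The medians lie between -0.07 and 0.00, and RAB40B (-0.86) and SGSM2 (0.66) are the extremes.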

How the data were processed

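RNA from 4 one-colour Agilent arrays was compared. Per the file headers, the spot intensity values that the authors deposited came from Feature Extraction 10.7.3.1, background-subtracted within arrays but not scaled between them. The authors also deposited a table of the same intensity, used as an alternative. From these, log2 processed intensity minus the array's 75th percentile was computed, with outlier-flagged spots left out. Probes well above background on both arrays of a group were tested with limma 3.58.1 in R 4.3.3 without covariates, with a Benjamini-Hochberg adjusted threshold of 0.05 over 20328 probes. Each gene is given by its probe with the highest mean signal. Pair intervals (95%) combine limma's standard errors of both probes as if these were independent. Precision is limited by the 2 arrays a group. Columns matched to no sample numbered 0. Genes named were those passing the threshold, the 5 lowest and 5 highest changes, the most and least different pairs, and genes with a seed match; other members are named by role, after their values were seen. Of the regulator lists, 2 genes are not reported here and entered no count over the lists. The members and lists were chosen with earlier results of these data known. Coordinates and names are those of the array files (hg19); 61 of 62 names are current RefSeq symbols. Exon or UTR position was not analysed here. The fit was also tested on simulated data with known changes. The alternatives tried are given in the closing section.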

Additional observations from a re-analysis of the deposited data

How the results depend on the processing

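The number of RAB genes passing the limma threshold was 2 lower and 0 higher. It became 28 lower and 1 higher (29) with spike-in scaling and 10 lower with an intensity trend in eBayes. With scaling to the median of detected probes it became 2 lower and 1 higher. Of all 20328 tested probes, 532 passed in the main fit, 9642 with spike-in scaling, 3083 with the trend and 539 with the median of detected probes. The number of RAB genes became 0 with no filter on dim probes, where the smallest RAB limma adjusted p was 0.41. There 8 of 62 RAB genes had an unadjusted p below 0.05, as had 3627 of all 50526 probes. The methods' t-test gave 12 of 48 at its unadjusted threshold, 11 lower and 1 higher, where 4115 of all 20328 probes passed. After Benjamini-Hochberg adjustment it gave 0. With the replicate number as a block, limma called 0 RAB genes and 0 of all probes. By unadjusted p below 0.05 it gave 14 of 48 RAB genes and 4400 of all 20328 probes. The array titles count on from the mimics to the controls, so the replicate numbers of the controls were assigned by order. The labels state no pairing. The correlation of same-numbered deviations across probes was 0.03, which cannot show whether arrays were paired. Over 1.5-fold, 2 genes were lower; this became 4 with spike-in scaling, 1 with normexp (RAB40B), 9 (7 lower, 2 higher) with no filter, 0 at a 2-fold limit, and 2 to 3 with single arrays left out. Shares of all genes are not given for the fold counts of these alternatives. The median RAB change was -0.25 with spike-in scaling and -0.08 to -0.07 with single arrays left out. The 3 regulator and effector genes became 71 with spike-in scaling, 21 with the trend, 8 with normexp and 5 with detection required on all 4 arrays. They became 0 with no filter, under the replicate block and in the methods' t-test after adjustment, settings in which 0 of all probes passed. Over all probes, 1550 of 20328 passed with normexp and 588 of 19352 with detection on all 4 arrays. With spike-in scaling, 46 of the 48 RAB changes were below 0, against 35 in the main fit. Single signs were followed only for the genes named by rule. Among these, signs turned for RAB26 (-0.11), RAB12 (-0.11) and RAB14 (-0.0945) with spike-in scaling, and for RAB14 without control 2 (-0.0603). The sign of RAB3B turned with quantile normalization (-0.0144), spike-in scaling (-0.185), without mimic 2 (-0.0549) and without control 2 (-0.21). That of RAB3D turned without mimic 2 (0.0269) and without control 2 (0.00010). With single arrays left out, the change ranged from -0.0603 to 0.247 for RAB14, from -0.212 to 0.219 for RAB3B and from -0.109 to 0.0269 for RAB3D. RAB40B and RAB3IP kept their direction in every alternative run. The number of pairs apart between groups, 13, was 11 with quantile normalization and with normexp. It was 14 with no filter, where the tested RAB genes numbered 62 and not 48. Counts with single arrays left out cannot be set against these, because a group of 1 array overlaps less easily. Apart from the effect of the construction of each alternative, the cause of these shifts was not tested. Dim probes, such as those of RAB7B, RAB14 and RAB40AL, lie near the background and are measured least well. A slide block could not be fitted, since there was 1 slide.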

Other observations

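RAB5C was printed in 10 spots of 1 probe on each array, which gives a view of the spread within an array. On mimic 1, 1 of the 10 spots read 41789.6 intensity units, was flagged by the scanner software and was left out, while the other spots read between 322.8 and 365.7. The same spot read 340.2 on mimic 2, 342.9 on control 1 and 338.6 on control 2.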
